A study of Mus musculus with 9 samples.

Results

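The lung contains one of the densest capillary beds of the body, and its endothelial cells carry a set of junction proteins and receptors that few other cell types make in quantity. The genes described here are 10 such genes: Pecam1, Cdh5 and Cldn5 of endothelial cell contacts, the vascular endothelial growth factor (VEGF) receptors Kdr and Flt1, the angiopoietin receptor Tek and its partner Tie1, the peptide hormone receptor genes Ramp2 and Ednrb, and the secreted protein gene Egfl7. They were chosen by name, as every probe set (a group of short probes that reads one transcript) annotated to one of these symbols and to no other gene. They are 10 of the 12393 genes that the array annotation names singly, and 17 of its 22690 probe sets.

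The study measured lung total RNA of adult FVB/N mice on 9 Affymetrix mouse 430A arrays, in 3 groups of 3. WT mice carried no transgene. HE mice carried 1 allele and HO mice 2 alleles of SP-C-hCFTR, a normal human CFTR cDNA driven by the Sftpc promoter, which is active in respiratory epithelial cells and is not an endothelial promoter. All groups are labelled as keeping both copies of mouse Cftr (mCftr+|+), except that WT replicate 3 has no genotype entry, and HO replicate 2 is titled and genotyped as homozygous while its description writes a single allele. Arrays are numbered 1 to 3 within each group, and the source names share a leading figure across groups for each number, whose meaning the labels do not give. The labels do not say that each array is a separate animal, so p-values measure only the spread between these samples, which may be technical. Whether any probe set reads the human cDNA was not tested, so the genotype labels were not checked against the transgene.

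Endothelial cells hold together through VE-cadherin (Cdh5) in adherens junctions, claudin-5 (Cldn5) in tight junctions and the adhesion molecule PECAM-1 (Pecam1), which platelets and leukocytes also carry. They respond to VEGF-A, made in the lung largely by the alveolar epithelium, through the signalling receptor Kdr, while Flt1 binds the same ligand tightly and acts in large part as a decoy. Angiopoietins act on Tek, with Tie1 as a partner receptor that has no established ligand of its own, and this pathway keeps vessels quiescent and tight. In whole lung RNA, fewer cells of a type and less RNA per cell cannot be told apart.

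RefSeq promoter windows (build GRCm38.p6) were found for 7 of the 10 genes, as 9 windows, since Egfl7 has several start sites. Members of the ETS family of transcription factors bind a core that can be written AGGAAG on one strand and CTTCCT on the other, and they are known regulators of endothelial genes. That core lay in 4 of the 9 windows, belonging to Egfl7, Flt1 and Tie1, against 29.5% of all 32851 windows of the same length. The 3 windows printed here, each the 250 bases before the transcription start read 5′ to 3′ on the gene's strand, are the first Egfl7 window and those of Flt1 and Tie1, shown because they hold the core. They lie at chr2:26580833-26581082 on the plus strand, chr5:147726012-147726261 on the minus strand and chr4:118489850-118490099 on the minus strand, and capitals mark the core on either strand.
Egfl7: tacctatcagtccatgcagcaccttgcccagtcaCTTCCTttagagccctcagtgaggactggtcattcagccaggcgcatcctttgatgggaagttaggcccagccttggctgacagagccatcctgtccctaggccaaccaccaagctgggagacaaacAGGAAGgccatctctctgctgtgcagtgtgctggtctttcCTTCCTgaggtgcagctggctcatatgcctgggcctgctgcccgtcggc
Flt1: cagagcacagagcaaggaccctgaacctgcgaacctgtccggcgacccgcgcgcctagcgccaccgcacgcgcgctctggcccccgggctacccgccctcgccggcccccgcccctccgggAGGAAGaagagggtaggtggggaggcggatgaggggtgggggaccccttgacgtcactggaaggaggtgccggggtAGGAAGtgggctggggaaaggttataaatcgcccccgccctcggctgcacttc
Tie1: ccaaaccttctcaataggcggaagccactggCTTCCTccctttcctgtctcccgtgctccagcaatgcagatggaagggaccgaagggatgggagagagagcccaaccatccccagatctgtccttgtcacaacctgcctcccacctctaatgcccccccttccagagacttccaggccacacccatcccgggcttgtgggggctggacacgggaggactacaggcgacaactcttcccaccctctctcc
The Egfl7 window held 3 matches, the Flt1 window 2 and the Tie1 window 1. The SOX core ACAAT was found in 1 of the 9 windows, that of Tek, against 27.7% of all windows. The GATA core AGATAA, present in 9.99% of all windows, and the forkhead core TGTTTAC, present in 3.17%, were not among the letters of these 9. All motifs were searched on both strands, and a match is a description of the letters only. Windows for Pecam1, Cdh5 and Ramp2 were not used here.

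Values are the authors' signals, with each array scaled to the same trimmed mean, and differences are on the log2 scale with a standard error (SE) from limma fitted over all 9 arrays and 13576 probe sets. A difference was called at an adjusted p (Benjamini-Hochberg over all 13576) under 0.05. All 17 probe sets passed the filter on low signal, so none was lost. Across the series the array medians ranged from 698 to 743.1, and the 3'/5' signal ratio of the Actb control probe sets, a measure of RNA integrity, ranged from 1.07 on HE replicate 2 to 1.39 on HO replicate 2. HO replicate 2 also carried the highest signal of 5 of the 10 genes, and the part of RNA quality in this was not tested. The probe set of highest mean stands for a gene unless another is named, and since probe sets differ in brightness, signals are compared only within a probe set.

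None of the 10 endothelial genes passed the test for a difference by genotype. By limma the adjusted p was 0.992 for every member probe set in HO against WT and 1 in HE against WT, and 0 of the 17 reached an unadjusted p under 0.05 in either comparison. Over all probe sets, 0% passed in either comparison and 4.49% (HO against WT) and 3.11% (HE against WT) had an unadjusted p under 0.05. The direct comparison of 2 alleles with 1 gave differences between -0.24 and 0.19 over the 17 probe sets, with an adjusted p of 1 throughout. The precision limits what could be called. The median SE of HO against WT was 0.16. On simulated data of this design 10.3% of changes of 0.5 on the log2 scale were recovered, against 85.7% of changes of 1. Each simulated run changed many probe sets at once, by 0.5, 1 or 1.5, with independent noise. That eases the adjusted threshold, so a change in a few genes alone would be recovered less often.

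Among the junction genes, Pecam1 showed the widest distance between the groups. Its signal was 6583, 6542 and 8915 in WT replicates 1 to 3, 8646, 10439 and 7987 in HE and 7363, 10044 and 9897 in HO. The groups overlapped because WT replicate 3 lay within the HE and HO ranges. The log2 difference was 0.31 ± 0.18 (SE, n = 3 against 3; 95% interval -0.08 to 0.70) for HO against WT and 0.30 ± 0.18 for HE against WT. For both transgenic groups against WT it was 0.31 ± 0.15, with an unadjusted p of 0.0724 and an adjusted p of 1 by limma.

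Cdh5 did not follow Pecam1. It read 10861, 7924 and 10091 in WT, 9485, 8357 and 9610 in HE and 9022, 11330 and 7894 in HO. Both the lowest and the highest array were HO, and the difference from WT was -0.04 ± 0.17 (95% interval -0.40 to 0.33) in HO and -0.06 ± 0.17 in HE. Its second probe set, at lower signal, gave -0.12 ± 0.22 and -0.06 ± 0.22.

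Cldn5 read 15191, 16633 and 15549 in WT, 17452, 17336 and 17357 in HE and 18156, 19655 and 13450 in HO. All 3 HE arrays lay above all 3 WT arrays and within 1 narrow band, whereas HO spanned the lowest and the highest array of the series. The log2 means were 13.95 ± 0.07 (SD, n = 3) in WT, 14.09 ± 0.01 in HE and 14.04 ± 0.29 in HO, and the differences from WT were 0.14 ± 0.15 (SE) in HE and 0.10 ± 0.15 in HO. The separation of HE from WT was shared by Tek, so 2 of the 17 member probe sets lay wholly above WT in HE, where 3.25% of all probe sets did.

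The VEGF receptors leaned in opposite directions in HO. Kdr read 11458, 9011 and 11838 in WT, 10497, 9990 and 10974 in HE and 10383, 8121 and 9368 in HO. HO replicate 2 was the lowest array, HO replicate 1 lay in the middle of all arrays, and WT replicate 2 and HE replicate 2 lay among the HO values. The differences were -0.21 ± 0.15 (95% interval -0.53 to 0.11) in HO and -0.03 ± 0.15 in HE. Flt1 read 3874, 3908 and 6008 in WT, 4174, 5468 and 4883 in HE and 4827, 5665 and 4569 in HO. WT replicate 3 was the highest array of all, and the differences were 0.15 ± 0.19 in HO and 0.10 ± 0.19 in HE. Its other probe sets gave 0.19 ± 0.16 and -0.07 ± 0.23 for HO against WT, so the Flt1 probe sets did not share a sign. Neither receptor's difference passed the test.

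**Figure D1:**
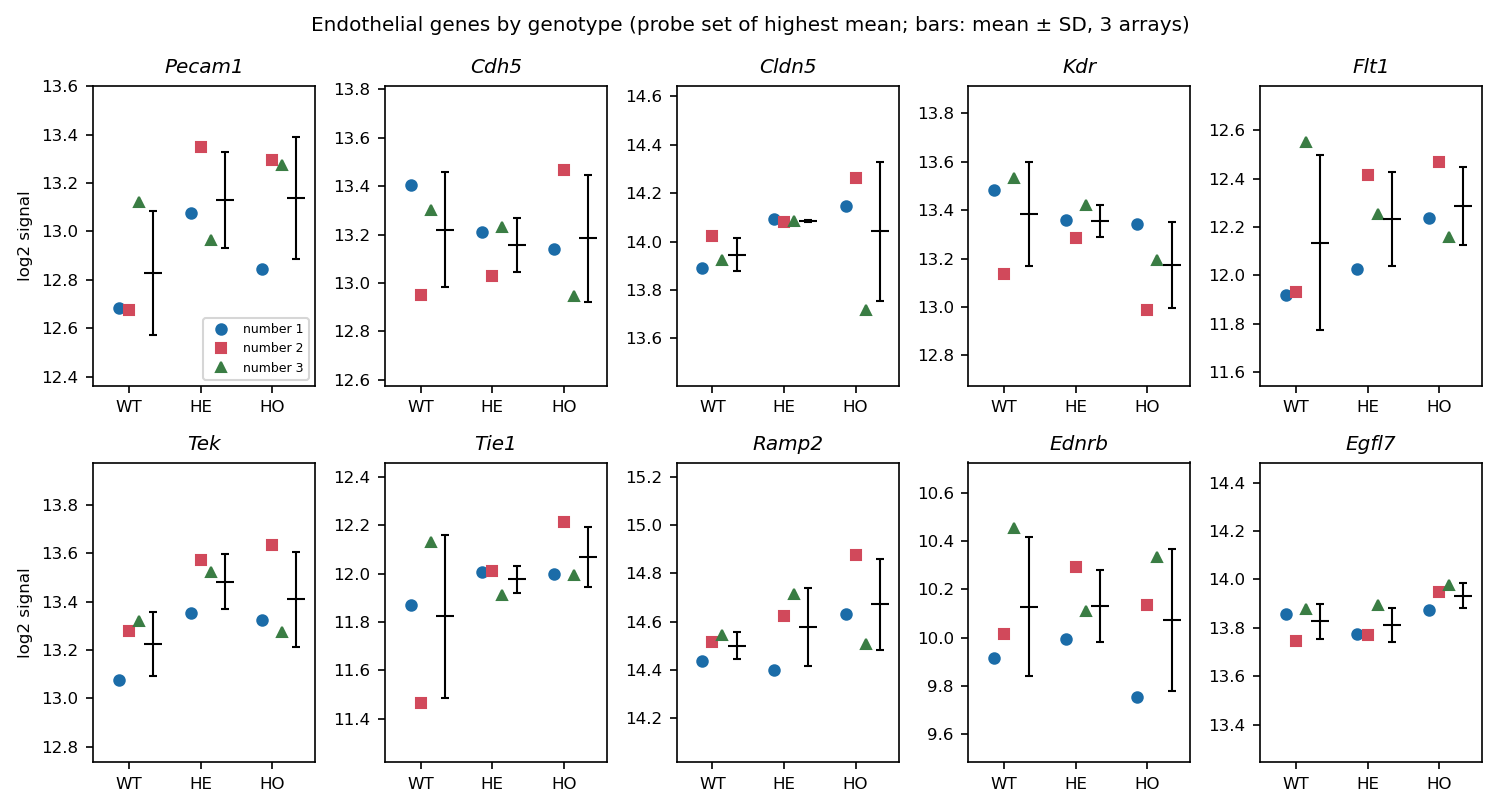
Log2 signal of the 10 endothelial genes (1 panel each, vertical axis in log2 units of scaled signal) for WT, HE and HO, with a point per array and bars for the mean ± SD of 3 arrays. The groups overlap in every panel except for HE against WT in Cldn5 and Tek, where the HE arrays lie above the WT arrays.

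Of the angiopoietin receptors, Tek read 8628, 9942 and 10227 in WT, 10469, 12176 and 11751 in HE and 10241, 12724 and 9900 in HO. Every HE array exceeded every WT array, while HO replicate 3 fell within the WT range. The difference was 0.26 ± 0.14 (95% interval -0.05 to 0.57) in HE, with an unadjusted p of 0.0953 and an adjusted p of 1 by limma, and 0.19 ± 0.14 in HO. Tie1 read 3744, 2828 and 4490 in WT, 4117, 4125 and 3850 in HE and 4089, 4748 and 4080 in HO. WT spanned 2828 to 4490 and so covered nearly all transgenic arrays, and the differences were 0.25 ± 0.17 in HO and 0.15 ± 0.17 in HE.

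Ramp2, whose product joins the receptor Calcrl to form the adrenomedullin receptor, read 22199, 23456 and 23922 in WT, 21625, 25251 and 26843 in HE and 25406, 30059 and 23283 in HO. HO replicate 2 stood above the rest, and the differences were 0.17 ± 0.14 in HO and 0.08 ± 0.14 in HE. Ednrb, the endothelin B receptor that clears endothelin and marks a class of alveolar capillary cells, read 966.5, 1034 and 1404 in WT, 1019, 1253 and 1106 in HE and 863.2, 1125 and 1290 in HO. WT and HO covered nearly the same range, and the differences were -0.05 ± 0.19 in HO and 0.00 ± 0.19 in HE. A second Ednrb probe set gave -0.13 ± 0.26 and -0.01 ± 0.26.

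Egfl7, which encodes a protein that endothelial cells secrete into their matrix, had the narrowest range of the 10 in its probe set of highest mean. It read 14848, 13734 and 15065 in WT, 14000, 13969 and 15213 in HE and 15028, 15794 and 16124 in HO, a span of 1.17-fold over the 9 arrays. The difference was 0.11 ± 0.12 (95% interval -0.15 to 0.36) in HO and -0.02 ± 0.12 in HE. The other 3 probe sets gave 0.17, 0.07 and 0.05 in HO.

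**Figure D2:**
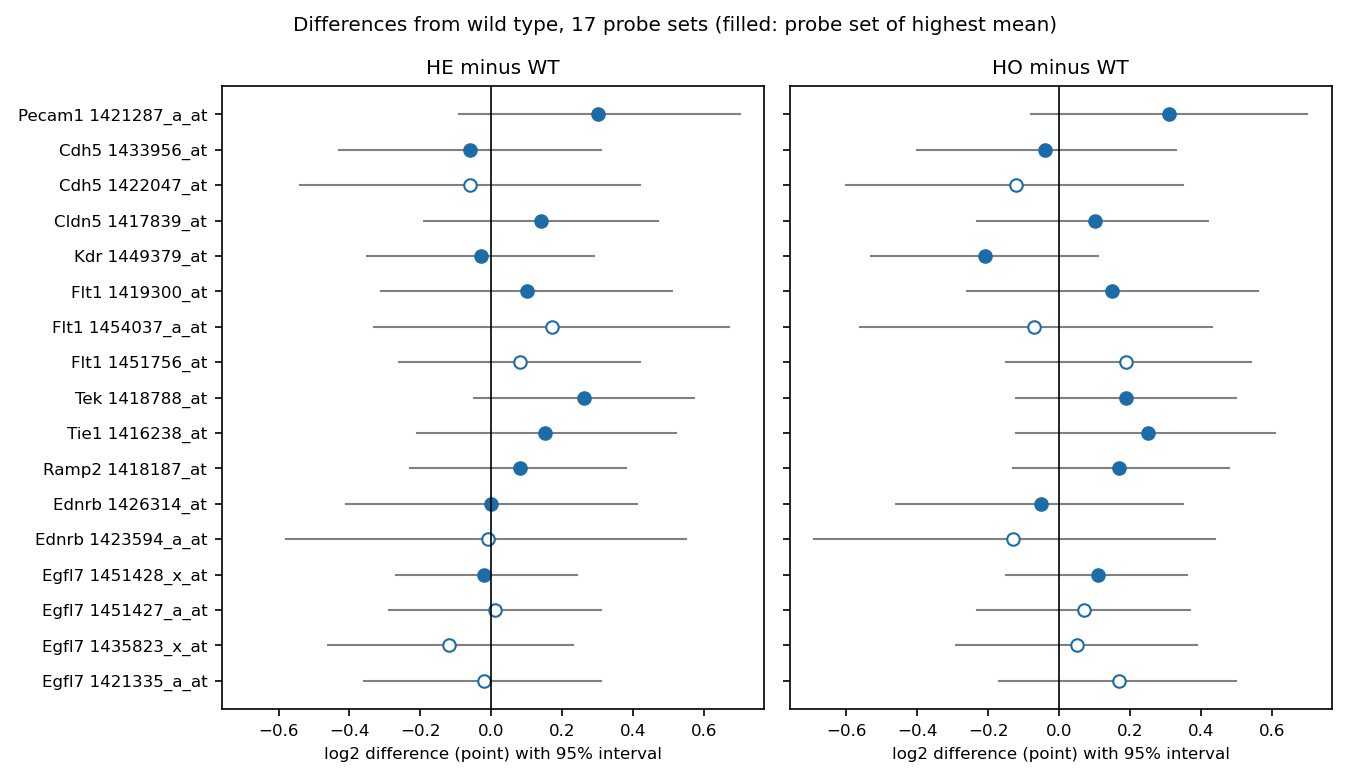
Log2 differences from WT (horizontal axis, log2 units) for the 17 probe sets, in one panel for HO and one for HE, with points for the fitted difference and bars for its 95% interval; filled points mark the probe set of highest mean for a gene. Every interval crosses 0, and the point farthest from 0 in HO is Pecam1 at 0.31.

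The order of group means differed between the genes. Flt1, Pecam1, Ramp2 and Tie1 were highest in HO and lowest in WT. Cldn5 and Tek were highest in HE and lowest in WT, Kdr was highest in WT and lowest in HO, Ednrb ran HE, WT, HO with HE and WT nearly level (a difference of 0.00 on the log2 scale), Cdh5 ran WT, HO, HE and Egfl7 ran HO, WT, HE. No neighbouring groups in any of these orders differed beyond their spread by limma. The median difference over the 10 genes was 0.129 in HO against WT, with 7 higher and 3 lower, beside a median of 7.35e-05 over all 8184 genes tested, of which 50% were higher. For HE against WT it was 0.088, again with 7 higher and 3 lower, beside -0.0134 over all genes, of which 46.1% were higher, and the 2 comparisons share the WT arrays. After median centring of each array, HO against WT split 8 to 2 with a median of 0.183, and HE against WT 9 to 1 with 0.126. After quantile normalization both splits were 7 to 3, and the medians were lower, at 0.0747 in HO and 0.0656 in HE.

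The size of the lean varied when single arrays were left out. Its sign turned only for HE against WT without WT replicate 2. None of the genotype medians then moved by more than 0.126, the SD within groups of the members' median per array. HO replicate 2 had 9 of the 10 genes above their own mean over the 9 arrays, with a median deviation of 0.253 on the log2 scale, and WT replicate 2 had 0 of 10, with -0.14. WT replicate 1 also had a median of -0.14, with 3 of 10 above, and WT replicate 3 had 0.102, with 7 of 10 above. The medians of the other 5 arrays lay between -0.069 and 0.056. Over all genes the share above their own mean was between 47.4% and 53.9% on each array. Without HO replicate 2 the HO against WT median was 0.0659, without WT replicate 2 it was 0.0657, and without HO replicate 3 it was 0.23. Without WT replicate 2 the HE against WT median turned to -0.0145, with 4 higher and 6 lower. Counting HO replicate 2 as HE, as its description would have it, gave 0.0659 for HO against WT, 0.155 for HE against WT and -0.0917 for HO against HE, where the labelled groups gave 0.0175.

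**Figure D3:**
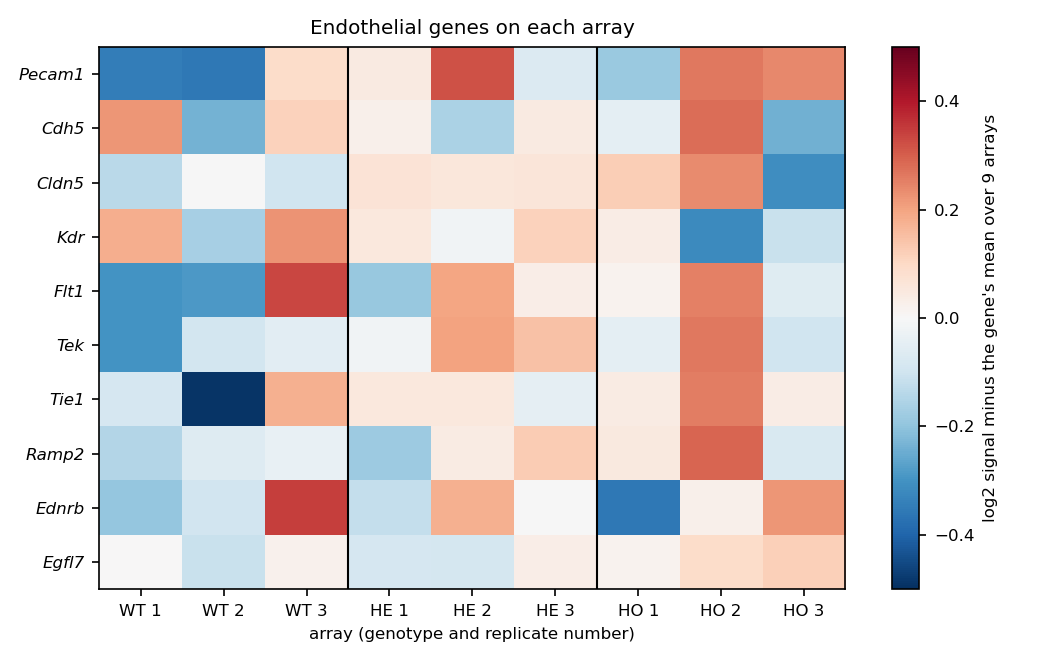
Log2 signal minus the gene's mean over the 9 arrays, as a colour scale, for the 10 endothelial genes (rows) on each array (columns, by genotype and replicate number). HO replicate 2 is above the mean for 9 of 10 genes, Kdr being the exception, and WT replicate 2 is at or below it for all 10.

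The members tended to vary together from array to array. Over the 45 pairs of genes the median Pearson correlation across the 9 arrays was 0.313 and 35 pairs were above 0 (77.8%), beside a median of 0.00388 and 50.4% above 0 over all pairs of the genes tested. With the means of the replicate numbers removed the median was 0.377. Leaving out the 2 arrays farthest from the median of a pair's first gene lowered r for most pairs and raised it for others. More pairs then lay below 0. Leaving out the outermost arrays narrows the range of the first gene, which by itself tends to bring r nearer to 0. This check therefore cannot tell whether the shared variation rested on outlying arrays. By exact permutation, 7 pairs had an unadjusted Pearson p under 0.05 and 0 passed after adjustment over the 45, the lowest adjusted p being 0.15. For Spearman's rho, 6 had an unadjusted p under 0.05 and 0 passed.

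The pair with the lowest p was Tie1 and Flt1, with r = 0.737 (exact permutation p 0.00846, adjusted 0.15) and rho = 0.817 (p 0.0108, adjusted 0.207). Without the 2 arrays farthest from the Tie1 median, WT replicate 2 and HO replicate 2, r was 0.749, and within numbers it was 0.866. Tek and Ramp2 gave r = 0.8 (exact permutation p 0.00989, adjusted 0.15) and rho = 0.683 (p 0.0503, adjusted 0.3), with r = 0.67 without HO replicate 2 and HE replicate 2 and 0.707 within numbers. Pecam1 and Tie1 gave r = 0.722 (exact permutation p 0.00998, adjusted 0.15) and rho = 0.8 (p 0.0138, adjusted 0.207). That r was 0.444 without WT replicates 1 and 2, the arrays farthest from the Pecam1 median, and it was 0.844 within numbers.

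Kdr stood apart from the other members in this respect. Only 3 of its 9 pairs were above 0, its median r was -0.143, and its lowest was -0.495 with Ramp2. Some of these values changed when arrays were left out. Without HO replicate 2 and WT replicate 2, the arrays farthest from the Kdr median, r was -0.0529 with Ramp2 and 0.169 with Cldn5. With Tek it stayed below 0, at -0.277. With Pecam1, r was -0.31, and -0.549 without WT replicates 1 and 2. Flt1, the other VEGF receptor, had the highest median r of the 10 at 0.601, and Tie1 had all 9 pairs above 0. Leaving Kdr out, 32 of the remaining 36 pairs were above 0 and the median was 0.37. These are descriptions, and the difference between Kdr and the other members was not tested.

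The 5 non-member genes with the highest mean correlation to the 10 members over the 9 arrays were Sf3a1 (0.545), Adamts8 (0.539), Rnpepl1 (0.535), Tnfrsf21 (0.531) and She (0.53), out of 8174 genes. For each of the 5 the lowest correlation was with Kdr. Since they were chosen by their mean correlation with the members, this is no separate evidence that Kdr stood apart. She, which encodes an SH2 domain adaptor protein, correlated most closely with Flt1 (r = 0.945). The median correlation with the members was 0.275 for the Notch list, 0.184 for 24 other endothelial marker genes, 0.18 for the angiopoietin list, 0.128 for endothelial transcription factors and 0.0738 for the VEGF list. It was 0.0114 for the adrenomedullin and endothelin list and -0.0346 for junction partners. Smooth muscle and pericyte markers, at 0.162, lay close to the other endothelial markers, so the level was not limited to endothelial lists. Blood cell markers gave 0.0512, fibroblast 0.00294, alveolar type I -0.126, cardiac -0.193, club and ciliated -0.205, alveolar type II -0.245 and mesothelial markers -0.31, and all other genes gave 0.00355.

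Probe sets of the same gene did not always track each other. Of the 11 same-gene pairs, 2 passed (exact permutation, Pearson, adjusted over the 11) and 3 were below 0. The Ednrb pair gave r = 0.856 (exact permutation p 0.00285, adjusted 0.0173) and rho = 0.75 (p 0.0255, adjusted 0.114), with r = 0.641 without the 2 outermost arrays and 0.952 within numbers. The Egfl7 probe sets 1421335_a_at and 1435823_x_at gave r = 0.884 (exact permutation p 0.00315, adjusted 0.0173) and rho = 0.967 (p 0.000165, adjusted 0.00181), with 0.896 and 0.899 in the same checks. By contrast Egfl7 1435823_x_at and 1451427_a_at gave r = -0.733 (exact permutation p 0.0256, adjusted 0.0939) and rho = -0.733 (p 0.0311, adjusted 0.114), with -0.659 without the outermost arrays and -0.697 within numbers. The x in a probe set's name marks probes that can also match other transcripts. The probe set that stands for Egfl7 here, 1451428_x_at, has it too, so the Egfl7 signals are uncertain to that extent. The Egfl7 probe sets without an x, 1421335_a_at and 1451427_a_at, also ran apart. They gave r = -0.519 (exact permutation p 0.152, adjusted 0.306) and rho = -0.633 (p 0.076, adjusted 0.209).

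Among the Flt1 probe sets no pair passed. Probe sets 1451756_at and 1454037_a_at gave r = -0.436 (exact permutation p 0.239, adjusted 0.329) and rho = -0.217, with -0.748 without the outermost arrays, and the sign turned within numbers, to 0.151. With 1419300_at, 1451756_at gave r = 0.171, or 0.658 within numbers, and 1454037_a_at gave 0.509, or 0.228 within numbers. Probe set 1454037_a_at read 1371, 1297 and 1872 in WT, 1269, 1956 and 1910 in HE and 1132, 1389 and 1838 in HO, high on number 3 in every group. Probe set 1451756_at read 2651, 2056 and 2139 in WT, 2486, 2511 and 2210 in HE and 2665, 3013 and 2177 in HO, and its number 3 arrays were below its number 1 arrays. Flt1 is known to give both a membrane receptor and soluble forms, and which of these each probe set reads was not examined here.

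**Figure D4:**
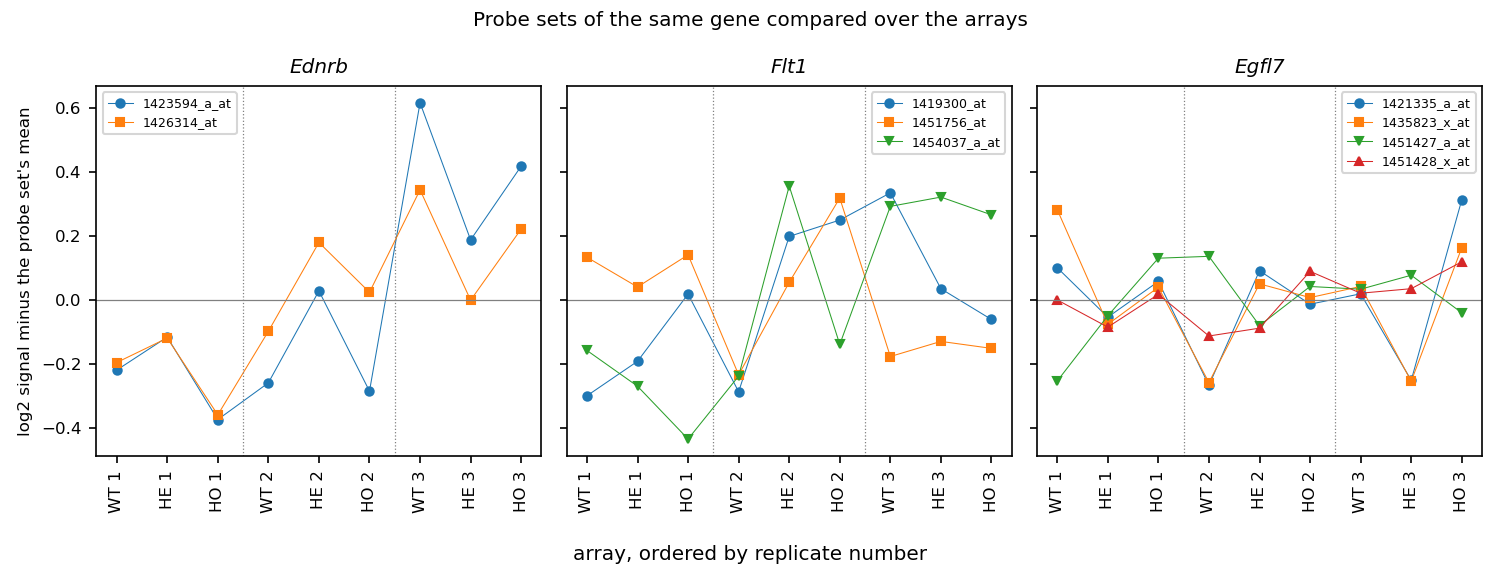
Log2 signal minus the probe set's own mean (vertical axis, log2 units) for the probe sets of Ednrb, Flt1 and Egfl7, over the 9 arrays ordered by replicate number (horizontal axis), with a line per probe set. Cdh5, which also has more than 1 probe set, is not shown. The Ednrb lines run together and are higher on the number 3 than on the number 1 arrays (on HE replicate 3, 1426314_at is at its own mean), whereas Flt1 1451756_at and 1454037_a_at part there.

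Over all probe sets, 12% had an unadjusted p under 0.05 in the F test over the replicate numbers, with genotype as a covariate (limma). In the F test over genotype 3.09% did, but that fit had no term for number, so the shares are not like for like. With the replicate block, the genotype comparisons gave between 3.49% and 5.95%. The members were also compared between numbers with genotype as a covariate. None of them passed. Number 3 exceeded number 1 for Ednrb by 0.41 ± 0.14 (limma, unadjusted p 0.0191, adjusted 0.345), and its second probe set, which read 671, 720.7 and 603 on the number 1 arrays of WT, HE and HO and 1196, 889.2 and 1043 on the number 3 arrays, by 0.64 ± 0.15 (p 0.00232, adjusted 0.236). Both had all number 3 arrays above all number 1 arrays. Flt1 1454037_a_at was higher by 0.58 ± 0.15 (p 0.004, adjusted 0.263), and Flt1 1451756_at was the 1 member probe set wholly below, at -0.26 ± 0.14, where 9.83% of all probe sets were. In all, 3 of the 17 probe sets had an unadjusted p under 0.05 for number 3 against 1, where 11.6% of all probe sets did, and 4 of the 17 lay wholly above, where 10.7% did.

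Between numbers 2 and 1, Kdr was lower without overlap, at -0.26 ± 0.12 (limma, adjusted p 0.465). Ednrb was higher without overlap in its probe set of highest mean, at 0.26 ± 0.14, but its second probe set overlapped, at 0.06 ± 0.15. Of all probe sets 8.15% lay wholly above and 7.89% wholly below in that comparison. Among all probe sets, 4 (0.0295%) passed for number 2 against 1, of Lepr, Apex1, Cxcl2 and Fabp4, and 0 for number 3 against 1, where 1572 had an unadjusted p under 0.05. Marker lists of other cell types also leaned with the numbers, with 0 markers passing. All 7 tested cardiac muscle markers of 8 listed were lower on numbers 2 and 3 than on number 1, with medians of -0.568 and -0.473, and all 3 tested mesothelial markers of 5 listed had medians of -0.708 and -0.967. Most lists of other lung cells leaned the same way. Smooth muscle and pericyte markers were lower for 10 of 10 on number 2 and 6 of 10 on number 3 (medians -0.253 and -0.11), club and ciliated markers for 6 of 6 and 5 of 6 (-0.19 and -0.293), alveolar type II markers for 8 of 9 and 7 of 9 (-0.072 and -0.125), and alveolar type I markers for 6 of 8 and 7 of 8 (-0.097 and -0.079). Fibroblast markers were lower for 6 of 8 and 5 of 8, and blood cell markers for 5 of 10 on both numbers. The members themselves were higher for 6 of 10 on number 2 and 7 of 10 on number 3. Their medians were 0.13 and 0.0893, beside -0.0122 and -0.015 over all genes, and so of the size seen in HO against WT (0.129). Other endothelial markers were higher for 15 of 24 and 16 of 24 (0.032 and 0.096), and endothelial transcription factors for 12 of 18 and 7 of 18 (0.101 and -0.033). The summed cardiac signal was 27938 to 31653 in WT, 24700 to 42692 in HE and 25235 to 44134 in HO, and the summed mesothelial signal was 5796 to 12574, 7471 to 9768 and 7696 to 11737. Nppa of the cardiac list and Wt1 of the mesothelial list were below the filter, and the part of these cells in the values of Ednrb, Flt1 and Kdr was not tested.

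Other endothelial genes gave no call by genotype either. Of 24 tested genes among 29 other endothelial markers, 16 were higher and 8 lower in HO against WT with a median of 0.053, and 11 were higher and 13 lower in HE with -0.018, and 0 passed. Acvrl1, a receptor of the TGF-beta family in endothelium, was 0.25 ± 0.12 higher in HE, with all HE arrays above WT. Lyve1, a marker of lymphatic endothelium, differed most by number, with 0.80 between numbers 2 and 1 (limma, adjusted p 0.161). The summed signal of the list was 168278 to 189804 in WT, 176727 to 190456 in HE and 171348 to 195985 in HO.

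Partners and ligands of the member receptors also gave no call. In the VEGF pathway list 10 of 14 genes were tested, 7 were higher and 3 lower in HO and 3 higher and 7 lower in HE, and 0 passed. They included the co-receptors Nrp2, at -0.30 ± 0.14 in HO and -0.23 ± 0.14 in HE, and Nrp1, at 0.18 ± 0.16 and -0.02 ± 0.16, and the ligand gene Vegfc, at 0.07 and 0.21. The main ligand gene, Vegfa, named here after its values were seen, was at -0.06 ± 0.12 in both groups. In the angiopoietin list 7 of 9 genes were tested, with 4 higher and 3 lower in HO and 3 higher and 4 lower in HE. The Tek ligand gene Angpt1 was at 0.49 ± 0.42 in HO, and it differed more by number (1.03 for number 2 against 1, 0.88 for number 3 against 1) without passing (F test, limma, adjusted p 0.335). Grb7, an adaptor that binds Tek, was at 0.29 ± 0.11 in HO (limma, unadjusted p 0.0236, adjusted 0.992).

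For the adrenomedullin and endothelin genes, 6 of 11 were tested, and 4 were higher and 2 lower in HO. The Ramp2 partner Calcrl was at -0.14 ± 0.17 in HO and 0.06 ± 0.17 in HE, the endothelin gene Edn1 at 0.29 ± 0.23 and -0.02 ± 0.23, and Ece1, which matures endothelin, at 0.22 ± 0.22 and 0.00. A second probe set gave -0.01 in HO and 0.24 in HE for Calcrl, and 0.2 and 0.29 for Ece1. Junction partners of Cdh5 and Cldn5 (12 tested of 16) split 6 to 6 in HO and 5 to 7 in HE, with medians of 0.006 and -0.055.

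In the Notch list, 9 of 10 genes were tested, and the ligand gene Dll4, which marks arterial and tip endothelium, gave the lowest unadjusted p of HE against WT there, at -0.59 ± 0.18 (limma, p 0.00743, adjusted 1). A second Dll4 probe set gave 0.03 in HE, so its 2 probe sets disagreed. Jag2, another Notch ligand gene, was at -0.36 ± 0.13 in HE, and 0 of the 9 passed. Among 18 tested of 21 endothelial transcription factor genes, Klf4, which vascular cells raise under laminar flow, was at -0.38 ± 0.16 in HO, Lyl1 at -0.26 ± 0.14 in HO and the ETS factor gene Fli1 at 0.35 ± 0.17 in HE, and 0 passed in either comparison.

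Marker lists of other lung cell types gave no call by genotype. Of the markers of alveolar type II cells, in which the Sftpc promoter is most active, 9 of 10 were tested and split 4 higher to 5 lower in both transgenic groups, with summed signals of 222885 to 273772 in WT, 234929 to 260800 in HE and 245296 to 272622 in HO. Of the alveolar type I markers, 8 of 10 were tested, with 1 higher and 7 lower in HE (median -0.1) and 5 higher and 3 lower in HO (0.056), and summed signals of 138126 to 165799 in WT, 138389 to 157164 in HE and 149593 to 165827 in HO. Club and ciliated markers split 3 to 3 in both groups. Smooth muscle and pericyte markers split 5 to 5 in HO and 6 to 4 in HE, fibroblast markers 4 to 4 and 3 to 5, blood cell markers 6 to 4 and 5 to 5, cardiac markers 5 to 2 and 3 to 4, and mesothelial markers 3 to 0 and 2 to 1.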

How the data were processed

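Signals were taken as deposited. They are linear intensity values for 22690 probe sets that the authors scaled on each array to 1 common level (a 2% trimmed mean of 1500 on all 9 arrays, computed from the deposited values). The sources used here do not name the software behind them. Of the probe sets, 20380 have 1 gene symbol, 691 several and 1555 none in the platform annotation. Signals were raised to a floor of 25.5 (the 5th percentile), converted to log2, and kept where the mean log2 signal was at least 8.9 (the 40th percentile), with 64 control probe sets left out. limma 3.58.1 in R 4.3.3 (lmFit, eBayes) was fitted to all 9 arrays, with 6 residual degrees of freedom and Benjamini-Hochberg adjustment over 13576 probe sets. Correlations have two-sided exact permutation p-values over all orderings of the 9 arrays (ranks and adjustment with scipy 1.17.1). The script was tested on simulated data in 10 runs, each with a set of changed probe sets (5.9 false calls per run). The false calls came beside calls of changed probe sets, so they give no rate for data without changes. The number of arrays limits the precision.

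The members and lists were chosen with earlier results of these data known. Named genes are all members, the 5 genes of closest pattern, and from each other list those that passed or had the 2 lowest p-values per comparison. Of these, a selection from the endothelial and pathway lists is named, and marker lists are given by counts. Named outside this rule are Vegfa, the untested Nppa and Wt1, and the 4 genes that passed between replicate numbers. Alternatives covered normalization, filter, floor, variance moderation, the label of HO replicate 2, single arrays and the replicate block. Same-numbered arrays deviated together in HO and WT (correlations 0.193, 0.139 and 0.276), but not in every pair of HE and WT (0.301, 0.05, 0.0425) or of HO and HE (0.156, 0.15, 0.0277), over probe sets.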

Additional observations from a re-analysis of the deposited data

How the results depend on the processing

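No member passed the threshold in the main fit or in any of 1290 values recomputed for single members under the alternatives, where the lowest adjusted p was 0.698 for genotype and 0.163 for replicate numbers (limma). Of those values, 11 moved by more than the spread between replicates. With the replicate block, 0 probe sets passed in each of the 4 genotype comparisons, as without it, while 808, 591, 474 and 772 had an unadjusted p under 0.05 in HO against WT, HE against WT, HO against HE and both transgenic groups against WT.

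Counts over the whole table changed as follows, and the cause of the changes was not tested. Some of the alternatives test other probe sets or fewer arrays. Without a filter, HE against WT and HO against HE each went from 0 to 2. Leaving out 1 array gave 0 to 1 for HO against WT, for HE against WT and for both transgenic groups against WT (1 without WT replicate 1), and 0 to 1 for number 3 against 1 (1 without HO replicate 1). The F test over the numbers, 2 in the main fit, gave 1 under quantile normalization, median centring, a 60th percentile filter or no genotype term, 0 without a filter or with HO replicate 2 counted as HE, 5 with trended robust moderation, and 0 to 1 when 1 array was left out. Number 2 against 1, 4 in the main fit, gave 0 without a filter or with HO replicate 2 counted as HE, 9 with trended robust moderation, 19 without the genotype term and 0 to 6 when 1 array was left out. Number 3 against 1 gave 3 with trended robust moderation.

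The members' median for number 3 against 2, 0.031, ran from -0.141 (without WT replicate 2) to 0.139. Leaving out 1 array, the median ran from 0.0657 to 0.23 for HO against WT, from -0.0145 to 0.147 for HE against WT and from -0.0792 to 0.11 for HO against HE. With all 17 probe sets it was 0.0963 and 0.0103 for HO and HE against WT. With 3 arrays a group, changes of the members of 0.5 or less on the log2 scale could mostly not be detected.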

Other observations

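Probe sets 1421051_s_at and 1428621_a_at are annotated to Ramp2 and Vps25 together and were left out of the 10 genes. They differed by -0.03 ± 0.14 and 0.05 ± 0.12 (SE, log2 scale) between HO and WT and by 0.02 ± 0.14 and -0.04 ± 0.12 between HE and WT, with group log2 means between 10.53 and 10.57 and between 11.35 and 11.44. The single-gene Ramp2 probe set gave 0.17 ± 0.14 and 0.08 ± 0.14 in the same comparisons.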
